A study of Mus musculus with 6 samples.

Results

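The 4 Hox clusters of the mouse, Hoxa on chromosome 6, Hoxb on chromosome 11, Hoxc on chromosome 15 and Hoxd on chromosome 2, were followed at single CpG positions in germinal centre B cells with and without Tet2. A position was taken as a member if it lay within 2 kb of the span of a numbered Hoxa, Hoxb, Hoxc or Hoxd gene and had at least 10 reads in all 6 libraries. The rule uses position and coverage and no methylation level, though the clusters were picked for study with earlier results of these data known. This gave 4069 of the 1463044 CpG positions covered in all libraries, of which 1150 were in Hoxa, 889 in Hoxb, 806 in Hoxc and 1224 in Hoxd, around 39 genes. Spleens of C57BL/6 mice gave the cells, which at this stage of an immune response divide rapidly and mutate their antibody genes. There were 3 libraries labelled TET2 Wild-Type (WT) and 3 labelled TET2 Knock-Out (KO). The labels do not give the knockout allele, any Cre driver, the age of the mice, the immunisation or the sorting gate, nor whether each library is 1 mouse. The assay was enhanced reduced representation bisulfite sequencing (ERRBS), which reads CpG-rich restriction fragments at high depth and scores methylated and hydroxymethylated cytosine alike. A methylation level here is the percent of reads at a position that kept a C after bisulfite treatment.

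Hox genes encode homeodomain transcription factors that give segments of the embryo their identity along the head-to-tail axis. Within a cluster the genes are numbered by paralog group, and the low-numbered genes, which act toward the head, lie at the end that is downstream in the direction of transcription. In cells that do not use them, Hox clusters are typically held silent by Polycomb complexes over CpG-rich DNA that carries little methylation. In blood, several Hoxa and Hoxb genes act in stem and progenitor cells, Hoxa9 and Hoxb4 among them, and Hoxc4 is known to act on the promoter of the antibody-diversifying deaminase in activated B cells. TET2 oxidises 5-methylcytosine, a step toward the loss of the methyl group.

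The contrast between neighbouring starts in the Hoxa cluster is shown by the 250 bases before the annotated start of 3 genes, which stood at a high, a low and a near-zero level. They are from the RefSeq promoter table for GRCm38.p6, written 5′ to 3′ on the minus strand, on which the gene lies. Capitals mark the CpGs read in all 6 libraries.
Hoxa5, chr6:52204588-52204837: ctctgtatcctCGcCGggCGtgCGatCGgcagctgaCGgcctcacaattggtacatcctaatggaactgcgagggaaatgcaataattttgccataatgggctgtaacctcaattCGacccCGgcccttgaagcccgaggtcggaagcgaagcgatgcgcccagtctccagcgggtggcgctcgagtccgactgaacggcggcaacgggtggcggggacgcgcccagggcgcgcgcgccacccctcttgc
Hoxa6, chr6:52208673-52208922: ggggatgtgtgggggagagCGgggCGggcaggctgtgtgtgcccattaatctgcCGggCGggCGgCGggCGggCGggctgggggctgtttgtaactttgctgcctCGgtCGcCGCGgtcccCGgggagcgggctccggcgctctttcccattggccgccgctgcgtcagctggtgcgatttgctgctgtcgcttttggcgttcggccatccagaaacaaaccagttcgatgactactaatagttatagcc
Hoxa13, chr6:52260881-52261130: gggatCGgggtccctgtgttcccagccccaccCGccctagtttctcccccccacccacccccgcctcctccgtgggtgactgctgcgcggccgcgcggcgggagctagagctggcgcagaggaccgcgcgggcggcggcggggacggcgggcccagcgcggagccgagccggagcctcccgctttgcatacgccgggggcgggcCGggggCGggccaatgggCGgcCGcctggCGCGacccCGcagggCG
The Hoxa5 stretch held 28 CpGs, 8 of them covered, the Hoxa6 stretch 24 with 13 covered, and the Hoxa13 stretch 35 with 10 covered. The 2 strands of a CpG were counted as separate positions.

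Before Hoxa5, a regulator of lung and skeletal development, the mean of 9 positions was 91.1, 96.5 and 94.5% in WT replicates 1 to 3 and 92.3, 92.7 and 90.5% in KO replicates 1 to 3. Every library stood above 90% and the groups overlapped. Before Hoxa6, the neighbouring gene upstream in the cluster, the mean of 17 positions was 1.08, 11.3 and 2.08% in WT and 1.88, 3.83 and 2.54% in KO. WT replicate 2 was the highest and the groups overlapped. Before Hoxa13, a regulator of digit and genital development, the mean of 15 positions was between 0.0538% and 0.493% in 5 libraries. In WT replicate 2 none of 1077 reads, summed over these positions, was methylated. That would allow a level of up to 0.279% for counting error alone, and more where a read was counted at several CpGs.

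Read depth did not set these positions apart from the rest of the genome. Mean coverage per Hox CpG was 109 to 138 reads, 0.936 to 1.01 times the mean over all covered CpGs of the same library. Read counts summed over all listed positions were 174375503 to 203863392 per library, where a read is counted at each CpG it covers. Methylated calls on mitochondrial DNA were 0.241% to 0.410%. As a check of the labels, 6 CpG positions of Tet2 were listed with 32 to 168 reads in all 3 WT libraries but in none of the KO libraries, and 0 the other way, where 108 were covered in all 6. Among the Hox positions 6 were likewise listed in all WT and no KO libraries and 3 the other way, where 4069 were covered in all 6, so the Tet2 pattern rests on few positions. The labelled cell type was checked by the lowest 1 kb tile within 2 kb of marker genes. It was under 20% in 5 of 7 B-cell genes, 3 of 7 T-cell genes, 2 of 6 myeloid genes and 3 of 3 erythroid genes that had a tile, with median lowest tiles of 1.31, 77.3, 83.7 and 0.773%. No marker gene was called, in a test that called 0.00805% of all gene windows in either direction. The smallest p-values were in Itgam of myeloid cells, Pax5 of B cells and Lck of T cells, whose windows were 8.71, 4.74 and 8.44 points higher in KO without overlap (adjusted p = 0.269, 0.271 and 0.291, moderated test). With CpGs weighted equally these differences were 8.54, 3.94 and 1.40 points, and the groups overlapped in Lck. Markers report methylation here, not RNA, and the part that other cells may have in the Hox values was not tested. Over all covered CpGs WT libraries correlated with each other at a Pearson r of 0.968 to 0.973 and KO libraries at 0.981 to 0.987. Pairs of a WT and a KO library correlated at 0.968 to 0.979, so WT libraries were no closer to each other than to KO libraries.

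The Hox clusters were less methylated than the rest of the covered genome, with fewer highly methylated positions. Each CpG weighted equally, the Hox mean was 13.6, 13.97 and 13.4% in WT replicates 1 to 3 and 14.4, 14.2 and 14.1% in KO replicates 1 to 3. For all other covered CpGs the WT mean was 33.0% ± 0.414 and the KO mean 33.8% ± 0.151 (SD over 3 libraries). Within a library the Hox mean lay 19.0 to 19.9 points below the mean of the other CpGs, by 19.5 points on average (SD 0.323). It was lower in 6 of 6 libraries (exact two-sided sign-flip test, p = 0.03125, the smallest that 6 libraries allow). Only 10.5% of Hox CpGs were above 50% on average over the 6 libraries, against 35.8% of other CpGs, and 1.52% were above 95%, against 9.33%. The share under 5% was much the same, 55.3% and 54.8%. Levels of 5% to 20% were held by 28.7% of Hox CpGs and by 6.04% of the others. The median Hox CpG, at 4.11%, was above the median of the other CpGs, 2.40%.

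The 4 clusters had different makeups, shown in the map of every member CpG. Hoxa held 272 positions above 50% (23.7% of its positions) and Hoxb 128 (14.4%). Hoxd held 25 (2.04%) and Hoxc 1 (0.124%). Levels of 5% to 20% were held by 45.5% of Hoxc positions and 38.6% of Hoxd positions, and by 13.9% in Hoxa and 18.9% in Hoxb. In 1 kb tiles with at least 3 CpGs, here and below taken as methylated reads over all reads, 25 of 171 Hox tiles were above 50%, 11 in Hoxa, 10 in Hoxb, 4 in Hoxd and none of 41 in Hoxc. Another 67 tiles were under 5% and 66 were at 5% to 20%.

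**Figure D1:**
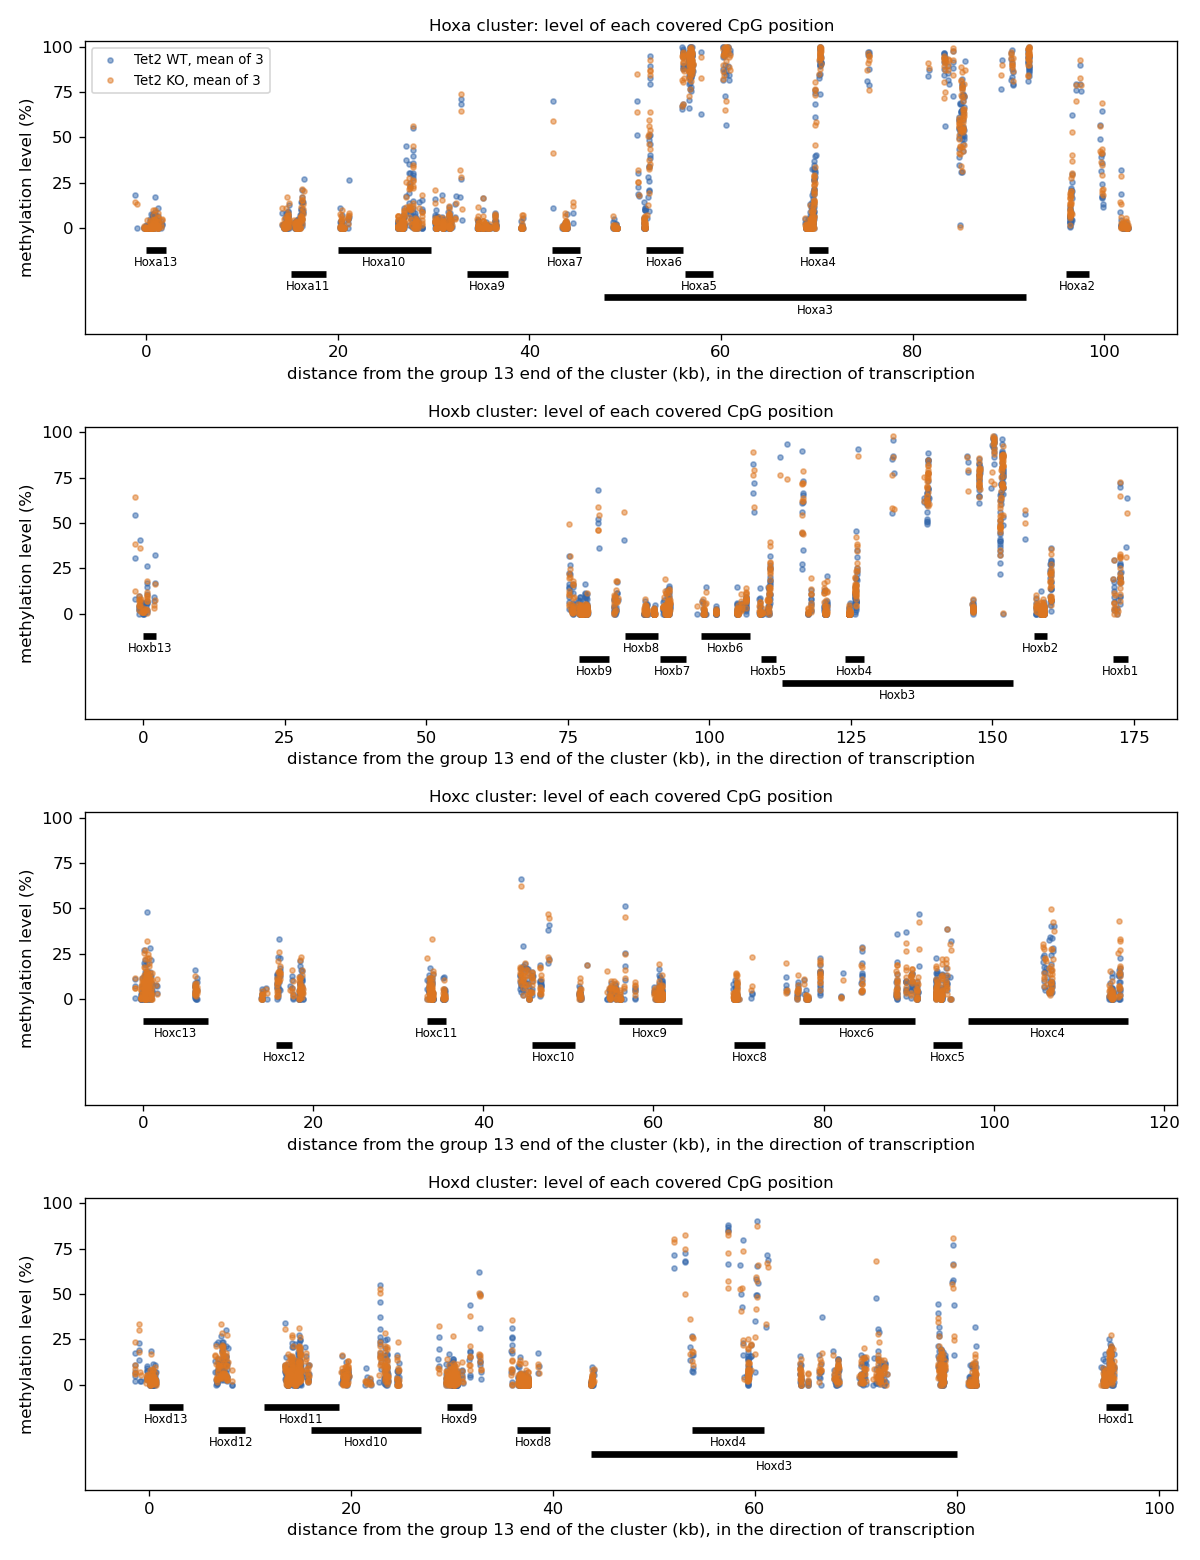
Methylation level (%) of each member CpG, as the mean of 3 WT (blue) and of 3 KO (orange) libraries, against the distance in kb from the group 13 end of each cluster; black bars are annotated gene spans. High levels gather at Hoxa3 to Hoxa5, inside Hoxb3 and at Hoxd4, and Hoxc has 1 position above 50%.

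Pooled over the clusters, mean methylation was highest near the low-numbered genes, but the order of paralog groups differed between clusters. With each CpG assigned to its nearest gene, the mean level over positions was, with the SD over 3 libraries, 24.4% ± 0.658 in WT and 25.2% ± 0.302 in KO for paralog groups 1 to 4, 14.2% ± 0.434 and 15.3% ± 0.183 for groups 5 to 8, and 5.53% ± 0.166 and 5.79% ± 0.152 for groups 9 to 13. In Hoxa, groups 5 to 8 stood above groups 1 to 4, at 54.6% ± 1.16 in WT and 57.2% ± 1.10 in KO against 37.8 and 38.7%. In WT, groups 1 to 4 of Hoxb, Hoxc and Hoxd stood at 27.9, 9.87 and 10.8%, while groups 5 to 8 of Hoxb, Hoxc and Hoxd stood at 4.39, 6.28 and 2.55% in WT. Groups 9 to 13 were between 3.93% and 6.69% in WT in all 4 clusters, and in Hoxd they stood above groups 5 to 8. In Hoxb they did so in WT, at 5.46% against 4.39%, but not in KO, at 5.45% against 5.49%. These groups are described without a test.

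In Hoxa, a methylated stretch ran from the downstream side of Hoxa2 through Hoxa3 and Hoxa4 to Hoxa5. No tile had enough CpGs from chr6:52205000 to 52208001, so whether the stretch runs on through Hoxa6 was not read. High levels were met again inside Hoxa6, close to its start. Of 15 tiles between chr6:52161001 and the last tile before the Hoxa6 start, 11 were above 50%, at 58.3% to 92.7%. From the tile of the Hoxa6 start to Hoxa13 none of 25 was, and the highest of them was at 40.6%. The tile over the Hoxa5 start (chr6:52204001-52205000, 75 CpGs) was at 88.3, 90.6 and 90.4% in WT and 91.1, 94.1 and 91.3% in KO. Each KO library of that tile was above each WT library. All 11 tiles above 50% had a KO mean above the WT mean, by 0.0551 to 4.01 points. Over all tested tiles of the genome 64% had a KO mean above the WT mean. The 11 tiles were picked by level after values had been seen and adjoin each other, so no test was made of them. The RefSeq span of Hoxa3, a gene of thymus and parathyroid development, is long and contains Hoxa4, Hoxa5 and Hoxa6, so windows of these genes share CpGs.

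At Hoxa6 levels changed sharply near the start, and methylation was higher in KO on the slope itself. Bins by distance from the Hoxa6 start were set after the values had been seen and are described without a test, each CpG weighted equally. Around the start, from 300 bases before to 100 bases into the gene, 23 positions averaged 1.75, 8.87 and 1.65% in WT and 1.98, 3.65 and 2.38% in KO, with overlapping groups. From 100 to 400 bases into the gene, 16 positions averaged 41.8, 41.5 and 41.6% in WT and 48.6, 52.3 and 47.7% in KO. Here each KO library was above each WT library, and 13 of 16 positions had a higher KO mean. The 2 positions from 400 to 800 bases averaged 73.2% in WT and 78.4% in KO. On the other side, 300 to 1000 bases before the start, 6 positions averaged 31.7, 38.0 and 35.7% in WT and 42.1, 39.5 and 43.6% in KO. All 6 of these had a higher KO mean and the groups did not overlap.

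**Figure D2:**
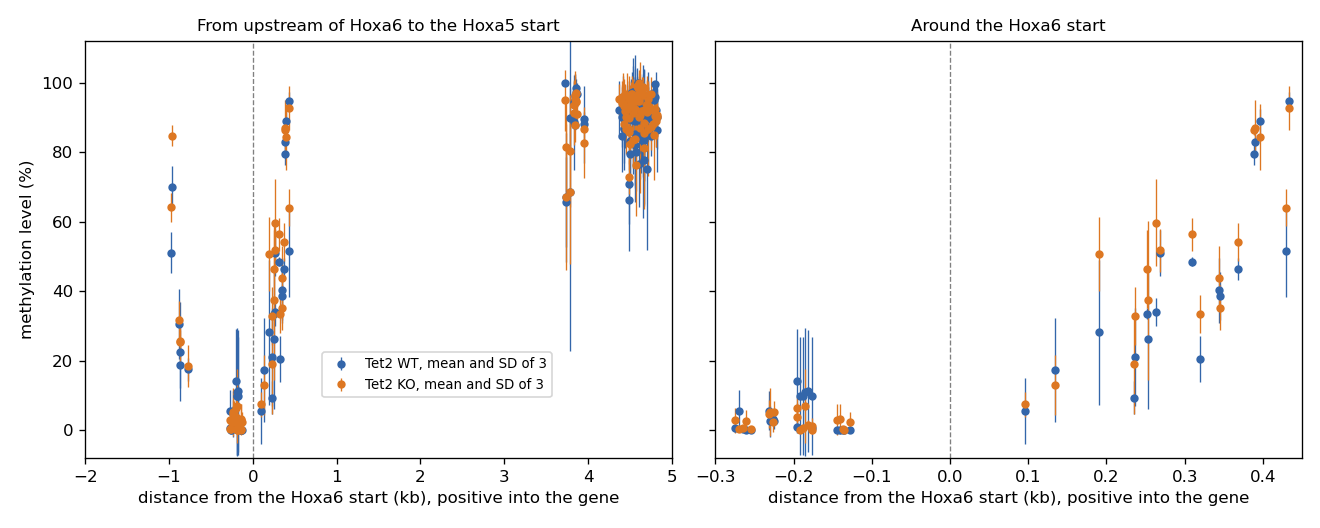
Methylation level (%) of each CpG against its distance in kb from the Hoxa6 start, positive into the gene and toward Hoxa5, as the mean and SD of 3 WT (blue) and 3 KO (orange) libraries. Levels are near 0 around the start and rise within 0.5 kb, and between 100 and 400 bases KO averages 49.5% against 41.7% in WT.

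Low islands interrupted the stretch at 2 other gene starts. At Hoxa2 KO was higher on the slope, as at Hoxa6, and at Hoxa4 the groups overlapped. At Hoxa4, 22 positions lying 800 to 1600 bases into the gene averaged 91.6% ± 3.08 in WT, 44 positions at 400 to 800 bases 21.2% ± 1.90, and 24 positions around the start 1.22% ± 0.543 (SD, n = 3). In KO the same bins averaged 95.3% ± 1.99, 21.1% ± 0.787 and 0.826% ± 0.385, with overlapping groups in each. A higher KO mean was held by 16 of the 22 positions, 15 of the 44 and 10 of the 24. Hoxa4 positions from 100 to 400 bases into the gene, 56 in all, averaged 5.98, 4.88 and 3.57% in WT and 1.69, 2.78 and 3.71% in KO. KO replicate 3 lay inside the WT range, and only 21 of these 56 had a higher KO mean. At Hoxa2, which patterns the second branchial arch, 25 positions at 400 to 800 bases into the gene averaged 14.3, 13.98 and 11.6% in WT and 18.6, 19.7 and 15.6% in KO. There the groups did not overlap and 22 of 25 positions had a higher KO mean. The 6 positions at 100 to 400 bases averaged 6.68, 3.66 and 2.56% in WT and 8.003, 12.6 and 11.9% in KO, again without overlap. The 5 Hoxa2 positions at 800 to 1600 bases averaged 80.2% in WT and 80.8% in KO.

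In Hoxb the methylated tiles lay mainly in the long span of Hoxb3, 8 of its 16 tiles, at 50.3% to 90.1%. The other 8 tiles of the Hoxb3 span were at 0.154% to 15.03%, with those over Hoxb4 among them. A further 2 methylated tiles lay toward Hoxb13, 1 nearest to Hoxb6 at 74.4% and 1 nearest to Hoxb9 at 51.4%. In Hoxd, 4 of 7 tiles from Hoxd4, a gene of the neck vertebrae, were above 50%, at 51.7% to 75.8%, and none of 23 from Hoxd13 to before Hoxd4 was. In 3 of these 4 Hoxd4 tiles the KO mean was below the WT mean. No Hoxc tile exceeded 32.2%.

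Levels of whole genes, as methylated reads over all reads in the gene span with 2 kb on either side, ranged from 1.64% to 90.8% over the 39 genes. Of these, 12 were under 5%, 20 at 5% to 20%, 5 at 20% to 50% and 2 above 50%. Each window held 30 to 453 CpGs and 2975 to 56278 reads per library, summed over its CpGs. Neighbouring windows overlap and are not independent of each other.

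The highest window was that of Hoxa5 (chr6:52201754-52204587) at 88.6, 90.2 and 90.8% in WT and 91.2, 93.3 and 90.6% in KO. Hoxa6 followed at 59.4, 64.9 and 64.0% in WT and 63.7, 65.9 and 62.9% in KO. Both overlapped between the groups, and the spread of Hoxa6 did not reach that of Hoxa5. The Hoxa6 window reaches over the Hoxa5 start and includes its highly methylated CpGs, while positions around the Hoxa6 start were low. Next in order came Hoxa3 at 49.4%, Hoxb3 at 37.6% and Hoxd4 at 30.2% as means of all 6 libraries. The lowest was Hoxa13, at 2.42, 1.45 and 1.85% in WT and 1.45, 1.29 and 1.41% in KO, close to Hoxa7 at 1.65%. The order of Hoxa13 and Hoxa7 is within their spread. Hoxa9, Hoxa10 and Hoxa11 averaged 3.36, 5.12 and 2.78%.

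In Hoxb the highest genes were Hoxb3, at 37.9, 36.9 and 34.4% in WT and 39.3, 40.2 and 36.9% in KO, and Hoxb1, a hindbrain gene, at 22.3, 19.1 and 20.2% in WT and 21.6, 23.5 and 20.1% in KO. Hoxb7 was lowest at 1.45, 2.43 and 2.62% in WT and 2.62, 2.70 and 2.93% in KO. The highest Hoxc gene was Hoxc4, at 7.99, 10.3 and 11.1% in WT and 11.2, 9.61 and 9.87% in KO, and Hoxc10 came next. Hoxc levels spanned a narrow range, 3.36% to 10.02%, and neighbours in their order did not differ beyond their spread. Hoxd12, a digit gene, was at 12.1, 11.04 and 9.98% in WT and 10.4, 13.4 and 11.7% in KO, after Hoxd4 at 29.2, 28.8 and 33.8% in WT and 30.3, 28.01 and 31.3% in KO. Hoxd8 was lowest in Hoxd at 2.23, 2.92 and 2.19% in WT and 1.94, 2.14 and 2.73% in KO. Hoxa13 was the only one of the genes given by library so far whose groups did not overlap, by a margin under the rounding given, and Hoxb7 overlapped by as little.

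**Figure D3:**
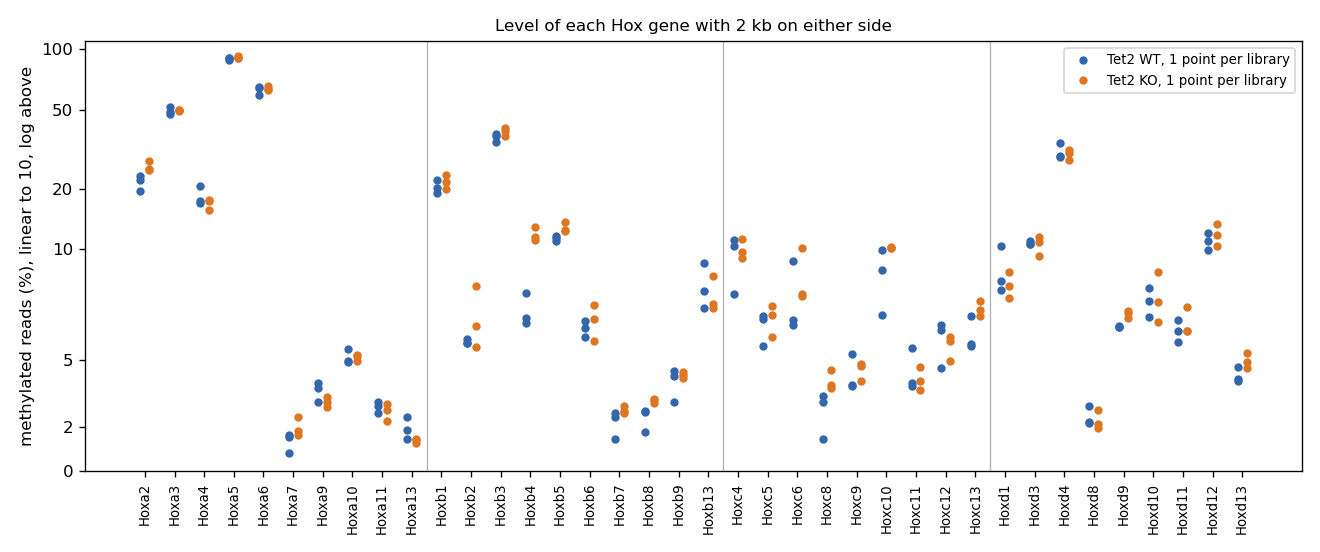
Methylated reads (%) in the span of each named Hox gene with 2 kb on either side, 1 point per library, WT blue and KO orange; the axis is linear to 10% and logarithmic above. The windows of Hoxa5 and Hoxa6, which share CpGs, are the only ones above 50% as means of all 6 libraries. Hoxa3 is at 51.4% in WT replicate 2, and most genes of groups 7 to 13 are under 10%.

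Without Tet2 the Hox mean was slightly higher, by 0.619 points (13.6% ± 0.305 for WT and 14.3% ± 0.116 for KO, SD, n = 3). The 3 KO libraries were above the 3 WT libraries (exact two-sided permutation test, p = 0.1, the smallest that 3 libraries against 3 allow). A threshold of 0.05 therefore could not be reached by any cluster mean. The other CpGs of the genome differed by 0.771 points. Within libraries the Hox mean minus that of the other CpGs differed between KO and WT by -0.152 points (exact permutation p = 0.6), and without WT replicate 1 by 0.0508 points (p = 0.9), so no difference specific to the Hox clusters was detected.

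Among the cluster means, the groups did not overlap in Hoxc and overlapped in the other 3. Hoxc CpGs averaged 6.04, 6.85 and 6.40% in WT and 7.27, 7.27 and 7.17% in KO, a difference of 0.808 points without overlap (exact permutation p = 0.1). Hoxb averaged 15.1, 15.9 and 14.9% in WT and 16.7, 16.5 and 15.5% in KO, 0.934 points apart, with overlap (exact permutation p = 0.2). Hoxa averaged 23.8, 24.4 and 23.1% in WT and 24.1, 24.7 and 24.6% in KO, a difference of 0.667 points, also with overlap (exact permutation p = 0.2). Without WT replicate 3 the Hoxa difference was 0.332 points, and as methylated reads over all reads 0.338 points (exact permutation p = 0.4 and 0.7). Hoxd averaged 7.76, 7.46 and 7.71% in WT and 8.24, 7.40 and 7.95% in KO, a difference of 0.221 points (exact permutation p = 0.5). Adjusted over the 4 clusters the values were 0.267 for Hoxa, Hoxb and Hoxc and 0.5 for Hoxd. The 6 pairs of clusters did not differ in their KO minus WT difference at a detectable level (exact permutation, adjusted p = 0.7 for each). Hoxd differed by 0.451 points without KO replicate 2, 0.0330 points without KO replicate 1 and 0.129 points without WT replicate 2.

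**Figure D4:**
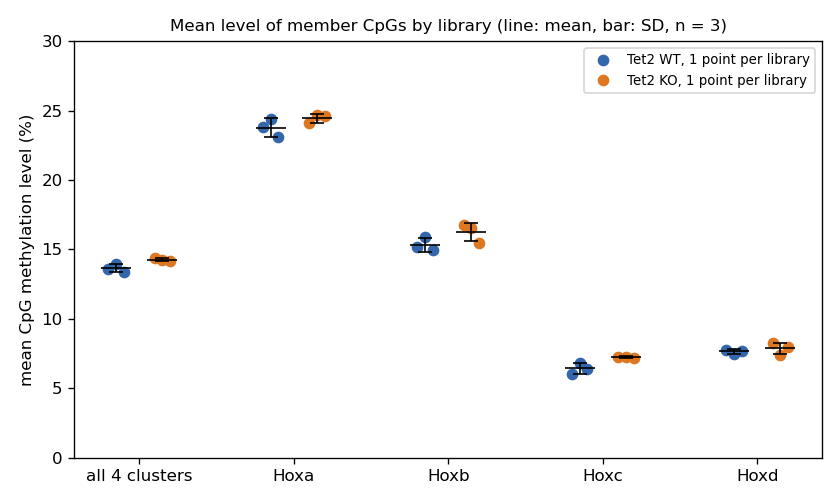
Mean methylation level (%) of member CpGs, each weighted equally, in all 4 clusters together and in each cluster; 1 point per library, with the mean (line) and SD (bar, n = 3) of WT (blue) and KO (orange). KO lies above WT without overlap over all 4 clusters and in Hoxc, and the groups overlap in Hoxa, Hoxb and Hoxd.

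Split by level, the Hox CpGs under 5% had groups that did not overlap, and the 2 higher classes had groups that did. The 1758 Hox CpGs at 5% to 95% differed by 0.993 points (26.0% ± 0.738 for WT, 27.0% ± 0.395 for KO, SD, n = 3), with overlapping groups (exact permutation p = 0.2), and by 0.553 points without WT replicate 3 (exact permutation p = 0.4). The 62 Hox CpGs over 95% were at 96.7% ± 1.92 in WT and 96.5% ± 1.42 in KO, with overlap (exact permutation p = 0.9). Other CpGs of the genome at 5% to 95% differed by 2.09 points. The 2249 Hox CpGs under 5% averaged 1.62, 1.60 and 1.77% in WT and 1.99, 1.89 and 2.17% in KO, 0.349 points apart without overlap (p = 0.1, exact permutation test). Other CpGs under 5% were 0.131 points apart. The difference between those 2 differences, 0.218 points, had overlapping groups (exact permutation p = 0.2).

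No single Hox CpG, tile or gene passed the test across the genome, which needed both an adjusted p under 0.05 and a gap of 10 points or more between the group means. Of 1758 Hox CpGs tested 0 were called by the moderated quasi-binomial test, where 0.284% of all tested CpGs were called higher in KO and 0.0105% lower. At an unadjusted p under 0.05 there were 122, which is 6.94% against 8.7% of all tested CpGs. The model with the dispersion of each CpG alone and limma on log2 ratios also called 0 Hox CpGs, with 92 and 96 at such a p. Across the genome the former called 20 CpGs higher and 15 lower and limma called 0, so these counts say little of the Hox CpGs. The KO mean was above the WT mean in 967 CpGs, 55% against 58.9%, and the groups did not overlap upward in 125, 7.11% against 8.3%, and downward in 63, 3.58% against 4%. Each of these shares was below that of the genome.

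Among 104 Hox tiles tested 0 were called by the same test, where 0.685% of all tested tiles were called higher and 0.00241% lower. An unadjusted p under 0.05 was found in 15, 14.4% against 11.5%. The unmoderated model and limma called 0 tiles in the whole genome, so their lack of Hox calls says nothing of Hox. They had 11 and 4 Hox tiles at such a p. KO was above WT in 72 tiles, 69.2% against 64%, and the groups did not overlap upward in 18, 17.3% against 12.7%, and downward in 2, 1.92% against 3.54%. Over all 171 Hox tiles these counts were 24 upward, 14% against 11.3%, and 4 downward, 2.34% against 3.48%. The median difference was 1.01 points, against 1.28 over all tested tiles.

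By adjusted p, the tiles nearest the threshold included the Hoxa6 edge and the Hoxa2 island. The tile at the Hoxa6 start (chr6:52208001-52209000, 41 CpGs) was at 23.0, 19.9 and 22.6% in WT and 27.7, 27.3 and 26.3% in KO, 5.28 points apart without overlap (adjusted p = 0.0551, moderated test). With its CpGs weighted equally the Hoxa6 tile differed by 2.53 points. The Hoxb5 tile (chr11:96304001-96305000, 24 CpGs) was at 7.30, 7.60 and 7.09% in WT and 11.7, 13.4 and 9.72% in KO, 4.30 points apart (adjusted p = 0.0957). The Hoxa2 tile (chr6:52164001-52165000, 31 CpGs) was at 10.6, 10.3 and 7.34% in WT and 14.7, 16.9 and 11.6% in KO, 4.96 points apart (adjusted p = 0.0976). Just after them came the Hoxb4 tile (chr11:96320001-96321000, 33 CpGs), at 12.0, 14.8 and 10.7% in WT and 20.01, 16.2 and 16.4% in KO, 5.07 points apart (adjusted p = 0.1002). None of the 4 overlapped between the groups, and none reached the 10 points of the call. These 4 were named because their p-values were smallest.

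The largest rises were in tiles of few CpGs. The tile inside Hoxc8, a gene of the thoracic skeleton, with 3 CpGs (chr15:102992001-102993000), was at 1.05, 1.92 and 3.79% in WT and 12.5, 5.91 and 13.8% in KO, 8.50 points apart (adjusted p = 0.132). The 6-CpG tile before the Hoxa6 start (chr6:52209001-52210000) was at 36.3, 39.3 and 33.9% in WT and 44.1, 42.8 and 47.3% in KO, 8.21 points apart (adjusted p = 0.203). Both did so without overlap, and KO replicate 2 was the lowest KO library in each. Tiles at Hoxd4 (chr2:74722001-74723000 and chr2:74721001-74722000), Hoxb3 (chr11:96310001-96311000) and near Hoxd9 (chr2:74701001-74702000) were 7.56, 6.94, 7.17 and 6.52 points higher in KO (adjusted p of 0.371 to 0.629, moderated test). Of these 4 the Hoxd9 tile alone had groups that did not overlap. The Hoxd4 tile from 74721001 differed by 3.13 points with CpGs weighted equally.

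The largest fall was also at Hoxd4. Its 5-CpG tile (chr2:74725001-74726000) was at 77.2, 85.1 and 82.9% in WT and 66.6, 67.9 and 75.1% in KO, 11.9 points lower without overlap (adjusted p = 0.131). It exceeded the 10 points but not the p threshold. The 4-CpG tile of Hoxb13, a gene of prostate and tail development (chr11:96196001-96197000), was at 19.1, 17.4 and 10.6% in WT and 8.79, 6.00 and 6.88% in KO, a fall without overlap (adjusted p = 0.309). The Hoxd3 tile (chr2:74747001-74748000) and the Hoxb3 tile (chr11:96326001-96327000) fell short of separation and differed by -8.18 and -5.86 points (adjusted p = 0.482 and 0.856). With CpGs weighted equally the Hoxd3 difference was -2.27 points.

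**Figure D5:**
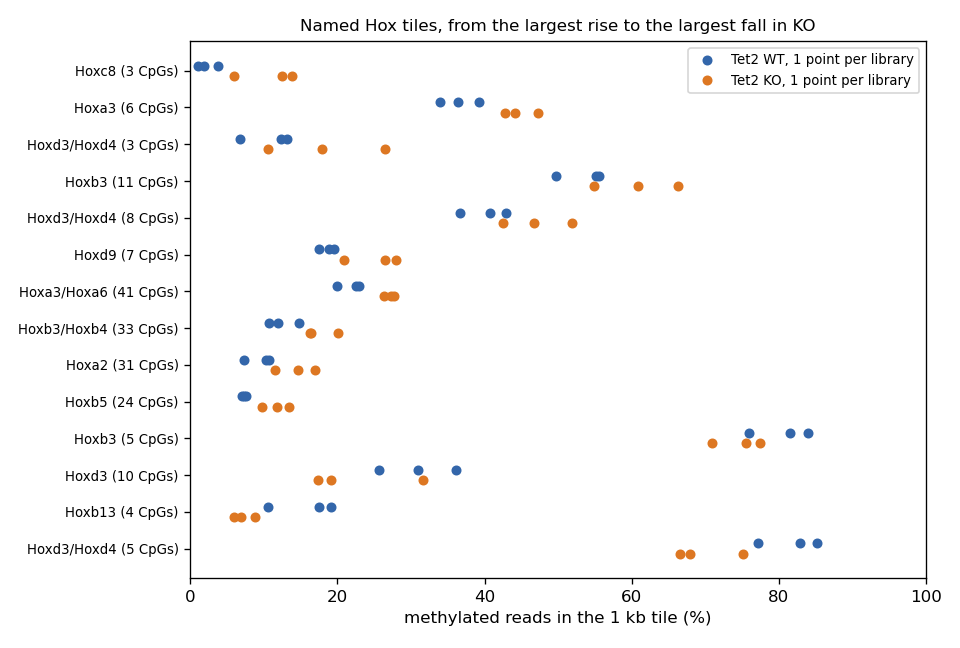
Methylated reads (%) in the 14 named 1 kb tiles, 1 point per library, WT blue and KO orange, labelled by gene with the number of CpGs and ordered from the largest rise to the largest fall. The Hoxc8, Hoxa6, Hoxb4, Hoxa2 and Hoxb5 tiles show KO above WT without overlap, and the Hoxd4 tile at the bottom lies lower in KO.

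Whole gene windows gave 0 calls among 27 Hox genes tested, where 0% of all tested genes were called higher and 0.00805% lower. The other 12 Hox genes were outside the tested range of 5% to 95%. An unadjusted p under 0.05 was found for 3, Hoxb4 and Hoxa2 among them, 11.1% against 12.1% of all tested genes. The unmoderated model and limma called 0 genes in the whole genome, with 4 and 2 Hox genes at such a p. KO was above WT in 21 of 27, 77.8% against 69.6%, and the groups did not overlap upward in 6, 22.2% against 15.5%, and downward in 0, against 1.76%, at a median difference of 0.571 points against 1.02. Over all 39 windows the groups did not overlap upward in 8, 20.5% against 14%, which were Hoxa2, Hoxb4, Hoxb5, Hoxb8, Hoxc8, Hoxc10, Hoxc13 and Hoxd9. They did so downward in 1, 2.56% against 1.94%, which was Hoxa13.

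Hoxb4, which promotes the expansion of blood stem cells, had the smallest p of the Hox genes. It was at 8.03, 6.91 and 6.70% in WT and 12.9, 11.1 and 11.6% in KO, 4.64 points apart (adjusted p = 0.244, moderated test). With its 70 CpGs weighted equally the Hoxb4 difference was 2.04 points. The groups did not overlap in the reads-weighted window. Hoxa2 was at 22.2, 23.2 and 19.5% in WT and 27.8, 25.3 and 24.8% in KO, 4.35 points apart (adjusted p = 0.342), and 4.38 points apart with CpGs weighted equally. In Hoxa5 the difference was 1.80 points (adjusted p = 0.545) and in Hoxb3 2.36 points (adjusted p = 0.465).

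Hoxc10, a gene of the hindlimb segments, was at 9.96, 7.04 and 9.06% in WT and 10.1, 10.2 and 10.3% in KO, 1.51 points apart (adjusted p = 0.594), and 0.204 points apart with CpGs weighted equally. Hoxc8 was at 1.46, 3.10 and 3.38% in WT and 3.75, 4.56 and 3.89% in KO, too low to be tested. In both the lowest KO library was above the highest WT library, and the 2 differ in how far the weighting moves them. Hoxd12 and Hoxd4 differed by 0.776 and -0.725 points (adjusted p = 0.818 and 0.905), the largest differences in Hoxd, and both changed sign with CpGs weighted equally.

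At single positions the differences nearest the threshold by adjusted p were on the Hoxa6 slope, in Hoxd4 and in Hoxd3. The position chr6:52208409, on this slope of Hoxa6, was at 31.9, 38.5 and 31.7% in WT and 54.2, 74.0 and 51.0% in KO, with 179 to 218 reads per library. It was 25.7 points higher in KO without overlap (unadjusted p = 0.000431, adjusted p = 0.0908), and without WT replicate 2 the adjusted p was 0.0370. The position chr2:74725575 in Hoxd4 was at 75.8, 89.3 and 91.2% in WT and 58.9, 38.8 and 73.7% in KO, with 85 to 193 reads, 28.3 points lower without overlap (adjusted p = 0.0979). These 2 lie in the Hoxa6 and Hoxd4 tiles described above. Next came chr2:74736447 in Hoxd3, at 6.82, 15.8 and 7.61% in KO. In WT it was at 0.621% in replicate 1, with no methylated read among 157 and 241 in replicates 2 and 3. It was 9.86 points higher in KO without overlap (adjusted p = 0.0994, moderated test).

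The other large single-CpG rises rested on fewer reads or wide spreads. At chr11:96310741 in Hoxb3 the levels were 3.85, 37.1 and 40.4% in WT and 70.2, 50 and 66.7% in KO, with 15 to 105 reads (adjusted p = 0.548). At chr6:52191055 on the Hoxa4 slope they were 31.1, 41.4 and 22.1% in WT and 60.6, 57.6 and 51.7% in KO, with 94 to 139 reads (adjusted p = 0.333). The positions chr15:103035956 and chr15:103035889 in Hoxc4 rose by 31.0 and 27.1 points and chr6:52218412 in Hoxa7 by 30.1 points in the means, with 14 to 62 reads per library and adjusted p of 0.573 to 0.774. None of these 5 passed, and 3 had groups that did not overlap.

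Large single-CpG falls were equally scattered. At chr6:52191323 in Hoxa4 the levels in WT were 39.3% in replicate 1, 58.9% in replicate 2 and none of 41 reads in replicate 3, and no methylated read was seen among 11, 27 and 35 in KO, which allows up to 27.3, 11.1 and 8.57% (adjusted p = 0.315). At chr2:74691074 in Hoxd10 they were 63.9, 32.2 and 15% in WT and 17.9, 8.64 and 5.79% in KO (adjusted p = 0.414). At chr6:52175948 in Hoxa3 they were 72.6, 57.4 and 76.1% in WT and 44.2, 37.9 and 54.3% in KO (adjusted p = 0.360). Of these 3 the Hoxa3 position alone had groups that did not overlap.

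Genes that work with or on the Hox genes were read in the same gene windows. Of the TALE cofactors, which bind DNA together with Hox proteins, 8 of 9 were tested and 0 called, with KO above WT in 4 and a median difference of -0.215 points. Of the Polycomb genes, which repress Hox clusters, 15 of 28 were tested and 0 called, with KO above WT in 11 and a median of 0.879 points. Of the activators and trithorax genes 15 of 17 were tested and 0 called, with KO above WT in 12 and a median of 2.32 points, against 1.02 points over all tested genes. These medians are of methylated reads over all reads, and medians with CpGs weighted equally were not taken. Equal weights changed the differences of single genes, as given below. Of all tested genes 0% were called higher and 0.00805% lower, so 0 calls in such short lists say little. KO was above WT in 50, 73.3 and 80% of the tested genes of the 3 lists, against 69.6% of all tested genes. In these lists 0, 1 and 5 genes had an unadjusted p under 0.05, against 12.1% of all tested genes. Taken over the 38 tested genes, limma and the unmoderated model each had 3 at such a p. Neither called any gene in the whole genome.

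Kdm6b, a demethylase that removes the Polycomb mark, had the smallest p of these genes. Its window was at 31.1, 29.9 and 30.5% in WT and 36.0, 37.0 and 34.5% in KO, 5.33 points apart without overlap (adjusted p = 0.137, moderated test), and 0.912 points apart with CpGs weighted equally. Kmt2b, a histone methyltransferase gene of the trithorax group, was 3.53 points higher (adjusted p = 0.269), and 0.796 points with equal weights. Ring1, a Polycomb gene, differed by 2.71 points (adjusted p = 0.417), and the cofactor genes Pbx2 and Pknox2 by 3.29 and -0.875 points (adjusted p = 0.482 and 0.884). With equal weights Ring1 and Pbx2 differed by 0.852 and 0.753 points, and Pknox2 by 0.910 points in the other direction.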

How the data were processed

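Methylation was measured by ERRBS in 6 libraries of splenic germinal centre B cells, 3 Tet2 WT and 3 Tet2 KO. Reads were aligned with Bismark to GRCm38, per the submitters' processing notes. Its version and settings: not given in the sources used here. The deposited files give, per the file headers, for each position and strand a read count (coverage) and the percent of C and of T calls. Methylated and unmethylated counts were computed from these deposited values and came out whole. Bisulfite does not tell hydroxymethylcytosine from methylcytosine, and PCR copies were not told apart, so limits from read counts cover counting error only.

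Gene spans came from the RefSeq table of GRCm38.p6, without exons, so exons and introns were not resolved. Promoter sequences were found for 22 of 39 Hox genes. The motif CCGG, the cutting site of MspI, occurred in 19 of the 24 Hox promoters (300 bases each) against 52.8% of 32851 promoters. Nothing says whether replicates are separate mice, and the p-values speak only of the spread among these libraries, which may be technical.

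Reads were summed over CpGs, 1 kb tiles with at least 3 CpGs, and genes with 2 kb flanks and at least 5 CpGs. In such sums a read that covers several CpGs is counted at each. Features with a mean of 5% to 95% entered a quasi-binomial logistic model. Its dispersion (4 residual degrees of freedom) was moderated by limma's method, written in Python 3.11.15 with numpy 2.4.6 and scipy 1.17.1, checked on simulated data and adjusted by Benjamini-Hochberg over the genome. Cluster means weight CpGs equally and were compared by exact permutation tests over libraries. The alternatives were a coverage minimum of 20 reads, other flanks (none or 5 kb), 2 kb tiles, cluster means as methylated reads over all reads, merged strands, leaving out the 0.1% of CpGs of highest coverage, testing all features, the unmoderated model, limma on log2 ratios with an offset of 1, a replicate block and leaving out each library. Weighting the CpGs of tiles and genes equally was added after seeing the data. Named were, per cluster, the 2 highest genes, the lowest and the 2 with the largest differences, the 6 tiles and 6 CpGs with the largest rise and 4 each with the largest fall, any called feature, and 2 genes per list with the smallest p. Members, lists and tests were chosen with earlier results of these data known. Some genes, 1 of the 39 Hox genes among them, are counted but not reported here by name.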

Additional observations from a re-analysis of the deposited data

How the results depend on the processing

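The Hox and cluster means kept their direction under each alternative run, and the Hox mean difference ran from 0.488 to 0.786 points as libraries were left out in turn. The difference of the Hox shift from that of other CpGs ran from -0.409 to 0.0508 points as libraries were left out, changed sign without WT replicate 1, and was -0.630 points as methylated reads over all reads. The Hox level against other CpGs ran from -19.6 to -19.4 points as libraries were left out, with p = 0.0625 (exact sign-flip test), the smallest that 5 libraries allow. It was -15.0101 points as methylated reads over all reads and -22.2 points with merged strands, the widest values of the alternatives run (p = 0.03125 each, exact sign-flip test). Called Hox CpGs ran from 0 to 2. Without WT replicate 2 they were chr11:96320165 in Hoxb4 and chr6:52208409 in Hoxa6, 16.2 and 27.96 points higher (adjusted p = 0.0199 and 0.0370). Without WT replicate 3 the 1 called was chr2:74746812 in Hoxd3 (16.9 points, adjusted p = 0.0192). Called Hox tiles and gene windows stayed at 0 under each alternative run, though limma and the unmoderated model called none in the whole genome. By p alone, without the 10 points, the Hoxa6 tile passed with merged strands (adjusted p = 0.0489) and in 2 kb tiles (0.0294). In the genome, called tiles numbered 569 higher and 2 lower, against 8 and 0 with all covered tiles tested, 0 and 0 with limma, and 1150 and 14 without WT replicate 3.

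Signs changed for some genes with small differences. Hoxd8 differed by 0.275 points with no flank and 0.858 with 5 kb flanks, and Hoxa6 by -0.127 points with 5 kb flanks. As libraries were left out, ranges crossed 0 for Hoxd8 (-0.405 to 0.0632 points), Hoxa6 (-0.264 to 2.47), Hoxc4 (-0.480 to 1.07), Hoxd4 (-1.61 to 0.890), Hoxd12 (-0.00190 to 1.504) and Pknox2 (-2.23 to 0.00929). With CpGs weighted equally Hoxb1, Hoxd12, Hoxd4 and Hoxd8 differed by -0.518, -0.0131, 0.107 and 0.0469 points. The cause was not tested.

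No pairing of the libraries by replicate number was detected, and the labels do not say whether same-numbered libraries belong together. Deviations of same-numbered WT and KO libraries correlated at 0.0229, 0.00220 and 0.00371 over 83114 tiles. With the replicate number as a block, 0 Hox CpGs, 0 Hox tiles and 0 Hox gene windows were called, as without it, and the Hoxa2 tile had an adjusted p of 0.0258 at 4.96 points. The Hox mean difference of 0.619 points had p = 0.25 (exact sign-flip test), the smallest that 3 pairs allow. In the genome the block gave 887 higher and 6 lower tiles, and 0 CpGs against 1489 higher and 55 lower without it.

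Depth limits single positions more than tiles and genes. Of the named CpGs, 3 had 14 to 62 reads per library, chr6:52191323 had 11 to 56 and chr11:96310741 had 15 to 105. Gene windows had at least 2975, summed over their CpGs.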
